A study of Mus musculus with 2 samples.

Results

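Among the sorted retinal cells of eyes injected with NMDA, 80 barcodes were chosen by their UMIs (unique molecular identifiers, each a counted RNA molecule) of 6 genes. These include the secreted factors Areg, Cxcl2 and Gdf15, and none of the 80 barcodes carried all 6. The rule was at least 3000 UMIs, under 4% of UMIs from mitochondrially encoded (mt-) genes, and at least 8 UMIs summed over Cxcl2, Areg, Calcb, Syt4, Asns and Gdf15. The 80 were 1.70% of the 4701 NMDA barcodes (95% Clopper-Pearson interval 1.35 to 2.11%) and stood among 7534 barcodes in the series. They were set beside the 3899 other NMDA barcodes with at least 3000 UMIs, at most 20% mt- and at least 10 UMIs of the glial genes Vim, Rlbp1 and Slc1a3, called other NMDA glia below, and beside 1927 barcodes of the uninjured library that passed that same glial filter, called uninjured glia. The question was whether the 80 are glia in a stress state.

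All cells came from mice on a C57BL6/J background that carried Glast-CreERT2+/tg and ROSA26R-Ai9+/ki, uninjured cells included, and that had received tamoxifen at 75 mg/kg on 5 days. The Glast (Slc1a3) promoter drives the inducible Cre in Müller glia and astrocytes, and the Ai9 allele then gives tdTomato, the signal on which cells were sorted after papain dissociation. NMDA, which overexcites and kills neurons of the inner retina through glutamate receptors, was injected into the vitreous (2 microlitres at 100 mM), eyes were taken 24 h later, and the contralateral un-injected eyes gave the control. The enzyme volumes in the protocol are for several retinae at once, and neither the number nor the age of the animals is given in the sources used here. Each group is 1 library, so nothing measures the spread between replicates; differences are given by size, with 95% intervals that cover counting error only, and no p-value is given.

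Müller glia span the retina, clear glutamate and potassium, and respond to neuron death by gliosis, in which Gfap rises and genes of the resting cell fall. The integrated stress response is a shared answer to amino acid shortage, unfolded protein, heme shortage and viral RNA: kinases phosphorylate the initiation factor eIF2, general translation falls, and the messenger RNA of the transcription factor ATF4 is translated more. ATF4 and its partner CHOP (gene Ddit3) then switch on genes for amino acid synthesis and uptake, for loading of transfer RNAs, and feedback regulators such as Trib3 and Chac1.

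The label of these cells held only in part. The gene seen most widely was Asns, with 597 UMIs in 76 of the 80 cells, followed by Gdf15 with 327 UMIs in 65, Syt4 with 289 in 41, Areg with 192 in 40, Cxcl2 with 374 in 18 and Calcb with 23 in 2. Areg, Cxcl2 and Gdf15 were found together in 8 of the 80 cells, and 32 had neither Areg nor Cxcl2. The rule was met by a single gene with 8 or more UMIs in 63 cells: that gene was Asns in 43, Syt4 in 15, Gdf15 in 12, Areg in 8, Cxcl2 in 5 and Calcb in 1, with some cells counted under more than one. Without Asns in the sum, 28 cells would fall below 8. Between 2 and 4 of the 6 genes were detected in most cells (21 cells with 2, 26 with 3 and 23 with 4), 5 cells had 1, 5 cells had 5, and none had all 6. The 3 stress lists described below were also summed across the edge of the rule, only in cells with at least 3000 UMIs and under 4% mt-. They stood at 5640 CPM (UMIs per 1000000 UMIs of the summed cells) in 4 cells with 6 UMIs of the 6 genes. They stood at 8240 in 5 cells with 7 UMIs, 9289 in 6 cells with 8 and 10266 in 4 cells with 9. The cells with 6 or 7 UMIs were outside the rule.

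Single barcodes decided some of these totals. One cell held 265 of the 374 Cxcl2 UMIs; it had 14619 UMIs in all, 74 of Vim and 11 of Asns. Another held 21 of the 23 Calcb UMIs, so Calcb, the gene of beta calcitonin gene-related peptide, described 1 cell more than the set. One of the 80 lacked glial transcripts: among its 4780 UMIs were 693 of S100a9, 559 of S100a8, 93 of Il1b, 26 of Cxcl2, 12 of Csf3r, 8 of Retnlg and 6 of Cxcr2, all neutrophil or leukocyte genes, against 1 of Vim and none of Slc1a3 or Rlbp1. The other 79 (98.8%) had at least 10 glial UMIs. Values that rest on the leukocyte-marked barcode are given with and without it, and counts of genes hardly moved without it (1070 higher and 715 lower, against 1069 and 711 with it, by the count explained below). NMDA and uninjured libraries shared 2 barcodes, none of them among the 80. In the uninjured library 1 of 2833 barcodes met the rule, through 9 UMIs of Gdf15 and none of the other 5 genes.

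**Figure D1:**
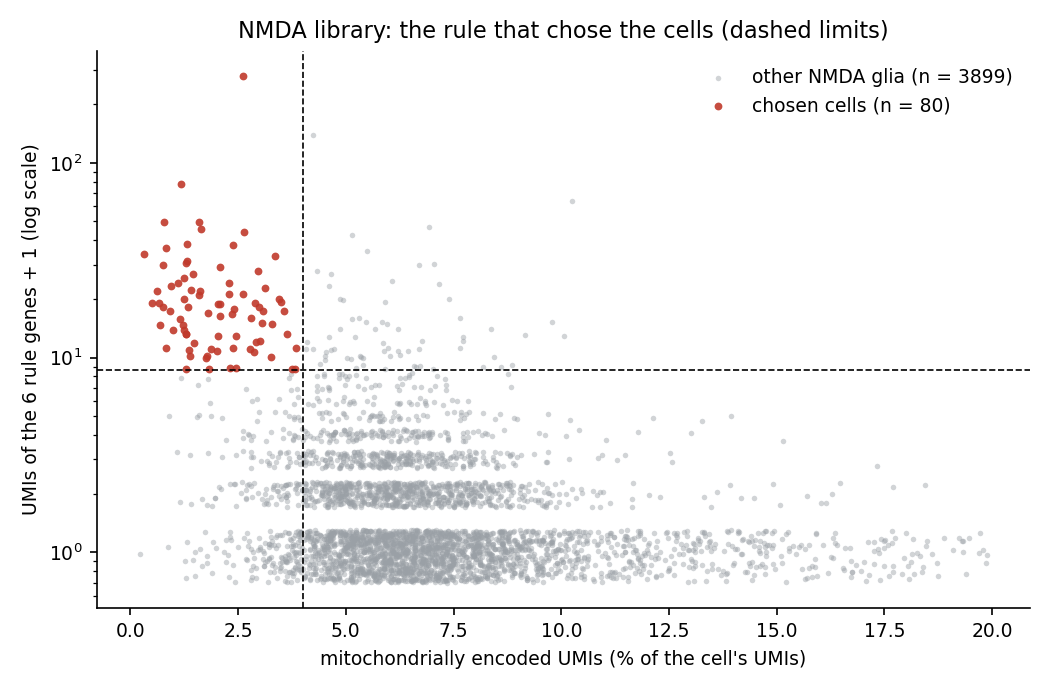
Each point is an NMDA barcode; the horizontal axis is the share of its UMIs from mitochondrially encoded genes in percent and the vertical axis, on a log scale, is its UMIs of the 6 rule genes plus 1. Dashed lines are the limits of 4% and 8 UMIs (points spread vertically for display); 68 other NMDA glia lie above the UMI limit but to the right of the mt- limit.

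Depth and mt- content differed between the groups. The chosen cells had a median of 12683 UMIs and 3924.5 genes (range 4780 to 32957 UMIs), the other NMDA glia 19460 UMIs, and the uninjured glia 7865 UMIs. The mt- share, limited by the rule, had a median of 1.85% in the chosen cells, 6.52% in other NMDA glia and 5.44% in uninjured glia. Summed, the groups held 1106864, 76841513 and 15843612 UMIs. Because depth differs, shares of cells with a UMI are given after thinning every cell to 3000 UMIs; to set a background from free RNA, they are also given at 1000 UMIs beside 165 rod-like NMDA barcodes (median 1583 UMIs before thinning).

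Asns encodes asparagine synthetase, a standard ATF4 target (chr6:7675169-7693254, GRCm38, minus strand). It stood at 539 CPM in the chosen cells, 23.3 in other NMDA glia and 0.69 in uninjured glia, where 11 UMIs were counted in all. Per chosen cell it ranged from 0 to 20 UMIs with a median of 8. Since the rule used Asns, a value is also given for the 52 cells that passed on the other 5 genes alone. There Asns was at 481 CPM against 26.5 in the remaining NMDA glia, an 18.1-fold difference, with UMIs in 48 of the 52. All 52 are among the 80, and the 6 genes were chosen together with earlier results of these data known. This value is therefore a description and no test. After thinning, 76.2% of chosen cells had an Asns UMI, against 5.93% of other NMDA glia and 0.21% of uninjured glia; at 1000 UMIs it was in 36 of 80 chosen cells and 2.54% of other NMDA glia, against 0.61% of rod-like barcodes.

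Gdf15 encodes a secreted stress cytokine of the TGF-beta family (chr8:70629393-70632456, minus strand). It stood at 295 CPM in the chosen cells, 10.7 in other NMDA glia and 8.33 in uninjured glia, with 0 to 20 UMIs per chosen cell and a median of 3. The 71 cells that passed on the other 5 genes had 22.9-fold more Gdf15 than the rest. Areg encodes amphiregulin, a ligand of the EGF receptor (chr5:91139599-91148432, plus strand), and was at 173 CPM, 2.42 and 0.19 in the same order, 44.2-fold higher in the 74 cells chosen without it. Cxcl2, a chemokine that attracts neutrophils (chr5:90903871-90905938, plus strand), was at 338 CPM in the chosen cells and 2.24 in other NMDA glia, and it had 0 UMIs in uninjured glia; against the limit of 3 UMIs that a count of 0 allows in that sum, the chosen cells were at least 1784-fold higher. That bound counts the 265 UMIs of 1 cell and the 26 of the leukocyte-marked barcode. The log2 ratio of Cxcl2 to other NMDA glia was 7.24 with every cell, 7.14 without the leukocyte-marked barcode and 5.48 without the barcode with most Cxcl2. Syt4, a synaptotagmin of secretory vesicles, was at 261, 7.90 and 1.89 CPM, and 30.7-fold higher in the 73 cells chosen without it. Calcb was at 20.8 and 2.58 CPM, and its log2 ratio of 3.04 became -0.17 without 1 cell. Asns, Gdf15, Areg and Syt4 were each more than 10-fold higher in cells selected without them and were detected in at least 40 of the 80. Cxcl2 was 121-fold higher in the 78 cells chosen without it, but most Cxcl2 and nearly all Calcb UMIs came from 1 cell each. The cells chosen on the other 5 genes are all among the 80, so these values describe the choice of cells and are no test.

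Ifi203, the listed marker that the rule did not use, belongs to the Ifi200 family of interferon-inducible proteins (chr1:173920407-173942672, minus strand). It was at 435 CPM in the chosen cells, 11.7 in other NMDA glia and 0.13 in uninjured glia, a log2 ratio of 5.22 to other NMDA glia (5.05 to 5.38), with UMIs in 54 of 80 cells. After thinning to 3000 UMIs, 46.2% of chosen cells and 2.85% of other NMDA glia had it; at 1000 UMIs 0 of 165 rod-like barcodes did. Its neighbour Mndal (chr1:173849126-173942491, same strand) was at 176 and 6.05 CPM. The annotated spans of the pair overlap on one strand and the family is alike in sequence, so the split of reads between them is uncertain.

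**Figure D2:**
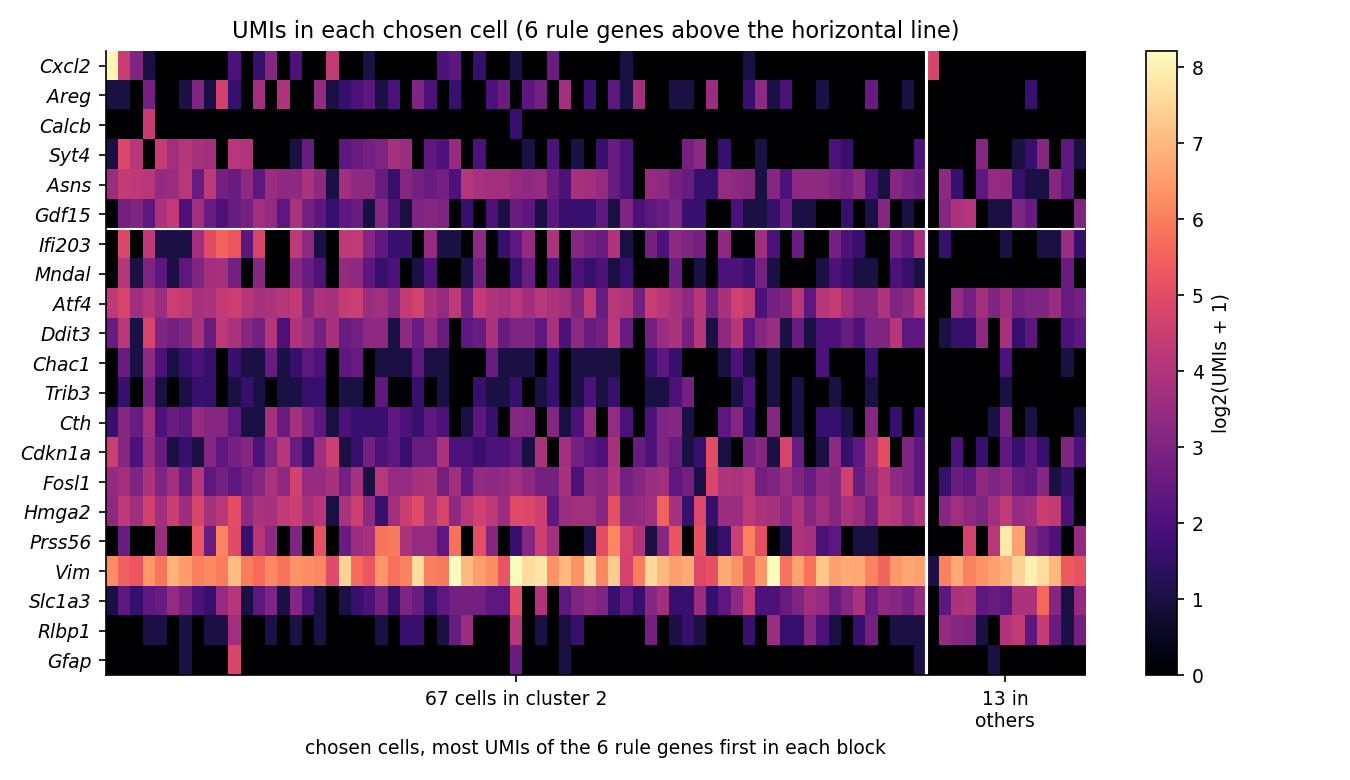
Columns are the 80 chosen cells and rows are genes; colour is log2(UMIs + 1), with the 6 rule genes above the horizontal line and the 67 cells of one cluster left of the vertical line. Asns, Atf4, Ddit3 and Vim are seen in nearly every column, whereas Cxcl2 is bright in few, most in the first; the barcode with leukocyte genes is the first of the right block, dark for Vim.

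At least 10 UMIs summed over Vim, Rlbp1 and Slc1a3 were present in 79 of the 80 cells, with markers of the resting Müller cell low. The summed level of the 12 Müller glia markers was 10736 CPM in the chosen cells, 14440 in other NMDA glia and 52558 in uninjured glia. Vim alone gave 7099 of the 10736 CPM and 5252 of the 14440. Of the 12 markers, 7 were at least 2-fold lower than in other NMDA glia and none higher, with a median log2 ratio of -2.02. Against NMDA glia under 4% mt-, 8 of the 12 were lower and none higher. Transcription factors of the cell type were close to other NMDA glia: Sox9 was at 398, 361 and 574 CPM and Sox2 at 551, 564 and 879. Vim, an intermediate filament gene, was at 7099 CPM against 5252 and 1676, with UMIs in all 80 cells. Rlbp1, the visual cycle retinoid carrier, was at 190 CPM against 928 and 4743, and 34 of the 80 cells had no UMI of it; Slc1a3, the glial glutamate transporter, was at 491, 936 and 1881. At 1000 UMIs, Vim was in 97.5% of chosen cells and 35.8% of rod-like barcodes, and Slc1a3 in 40.0% and 4.85%. Rlbp1 (16.25% and 11.5%) and Aqp4 (1.25% and 1.21%) were near the rod-like background at that depth. The sorted reporter tdT was seen in 12.5% of the chosen cells after thinning to 3000 UMIs (6.16 to 21.8%), in 14.7% of other NMDA glia and in 12.4% of uninjured glia, so these shares did not separate the groups; at 1000 UMIs it was in 3.75% of chosen cells and 1.21% of rod-like barcodes.

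Markers of most other cell types were low or absent once the leukocyte-marked barcode was left out, and 2 low sums were above other NMDA glia. The 7 ciliary or corneal epithelium markers summed to 37.0 CPM against 15.4 and 36.1 in uninjured glia, of which Opn3 gave 21.7 against 1.90, with 4 markers at 0 (Krt5, Krt12, Krt14 and Cdh1); 18 of the 80 cells lay above the 95th percentile of other NMDA glia. The 8 amacrine markers summed to 21.7 against 10.8 CPM, with 4 at 0 and 12 cells above that percentile. Their part in the results was not tested. The 7 neutrophil markers summed to 1158 CPM with it and 3.63 CPM without it, and the 12 microglia or macrophage markers to 44.3 and 2.72 CPM, against 36.6 CPM in other NMDA glia; P2ry12, Tmem119, C1qa, C1qb and C1qc had 0 UMIs in the chosen cells. The 12 rod markers summed to 60.5 CPM in the chosen cells, 293 in other NMDA glia and 354 in uninjured glia. In other NMDA glia under 4% mt-, the rod markers summed to 64.9 CPM and the microglia or macrophage markers to 3.50. Both were near the chosen cells without the leukocyte-marked barcode. All 7 T or natural killer cell markers in the file and all 6 fibroblast markers were at 0 in the chosen cells, and the 9 retinal ganglion cell markers summed to 41.6 CPM against 72.1 in other NMDA glia. The 6 astrocyte markers summed to 94.9 CPM against 319, of which Aldh1l1 made up 86.7 and 313; Igf1, S100b and Gjb6 had 0 UMIs and Pax2 had 1. Doublets, droplets that held more than one cell, were not removed: Scrublet's own threshold marked 0 NMDA barcodes, and by its highest scores 1 of the 80 and 176 of the 3899 other NMDA glia (4.51%) would be removed, which left the counts below within 1.5 times their value.

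Gene by gene, 8429 genes had a mean of at least 10 CPM over the chosen and the other NMDA sums. Of these, 1069 stood 2-fold or more above other NMDA glia in the chosen cells, which is 12.7% of genes counted, and 711 stood 2-fold or more below them, 8.44%. The median log2 ratio was 0.20, so CPM placed the chosen cells a little high as a whole. TMM factors moved every ratio down by 0.20, and higher genes then made up 42.2% of those past 2-fold in place of 60.1%; with the median of ratios 762 genes were higher and 931 lower, and the share was 49.9% with ribosomal protein and mt- genes left out of the total. Against uninjured glia, 1613 of 9047 genes stood 2-fold or more above (17.8%) and 2157 as far below (23.8%), with a median of -0.05. Since the cells were chosen within the NMDA library, these shares are backgrounds against which the lists below are read, and no list stands as a test.

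**Figure D3:**
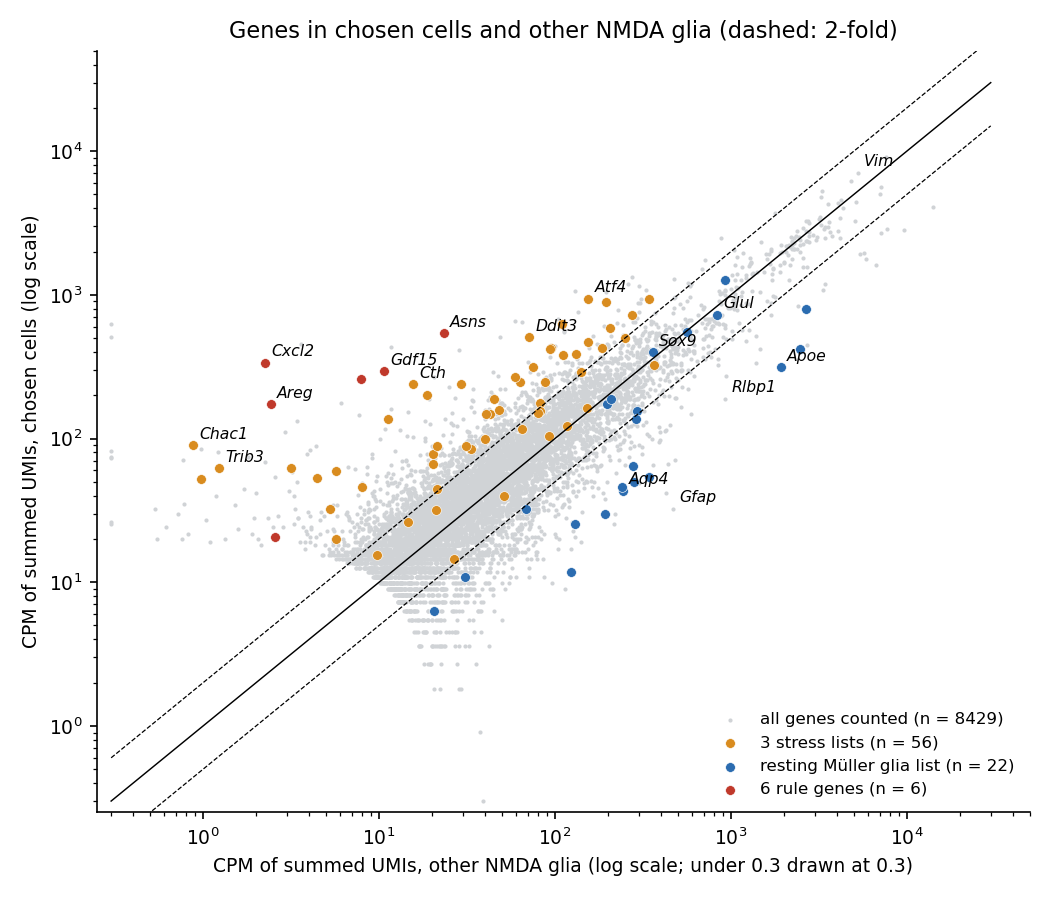
Each point is a gene counted; axes give its CPM in the summed other NMDA glia (horizontal) and the summed chosen cells (vertical), both on log scales, with lines of equality and of 2-fold difference. The integrated stress response, amino acid and tRNA synthetase genes lie mostly above the upper dashed line (Atf4 at 942 against 155 CPM, Chac1 at 90.3 against 0.87), and resting Müller glia genes mostly below the lower one.

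Regulators and effectors of the integrated stress response were higher in the chosen cells. Of 22 genes in the list, 20 were counted, 14 were at least 2-fold higher and none was 2-fold lower, with a median log2 ratio of 1.37 beside 0.20 for all genes counted. Atf4 itself was at 942 CPM against 155 in other NMDA glia and 100 in uninjured glia, a log2 ratio of 2.61 (2.52 to 2.70), with a median of 13 UMIs per chosen cell and at least 1 UMI in 78 of 80. Ddit3 was at 510, 71.5 and 92.7 CPM with UMIs in 74 cells. Atf4, Ddit3 and Asns were detected together in 71 of the 80 cells. Chac1, which breaks down glutathione, was at 90.3 CPM against 0.87 and 0.63, a log2 ratio of 6.69 (6.23 to 7.16), and was detected in 44 cells with at most 9 UMIs in any one. Trib3, a pseudokinase that restrains ATF4, was at 62.3 CPM against 1.24, and Stc2, a secreted glycoprotein, at 52.4 against 0.98. Chac1 or Trib3 was detected in 49 of the 80 cells. After thinning to 1000 UMIs, 11.2% of chosen cells had Chac1, against 0.077% of other NMDA glia and 0 of 165 rod-like barcodes. A limit of 3 barcodes for that count of 0 allows a share of 1.82%, and the Clopper-Pearson interval reaches 2.21%. Atf4 was in 63.7% of chosen cells and in 547 of the 3899 other NMDA glia at that depth, but rod-like barcodes had it too, in 30.9%. Sesn2, a leucine sensor, was at 53.3 CPM against 4.45, and Ppp1r15a, the phosphatase subunit that reverses eIF2 phosphorylation, at 418 against 94.1. Of the kinases that start the response, these were not among the higher genes: Eif2ak4 was at 15.4 CPM against 9.77, Eif2ak1 at 31.6 against 21.1 and Eif2ak2 at 14.5 against 26.7. Nupr1, another target, was at 326 CPM against 364.

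Of the 3 stress lists, that of enzymes and transporters that supply amino acids was the most uniform. All 17 members counted, of 19 in the list, were at least 2-fold higher than in other NMDA glia, with a median log2 ratio of 2.08. Cth, which makes cysteine, was at 239 CPM against 15.6, with a log2 ratio of 3.94 (3.74 to 4.13) and UMIs in 58 cells. The cationic amino acid transporters Slc7a3 and Slc7a1 were at 62.3 against 3.16 CPM and 137 against 11.3. Slc7a11, the cystine and glutamate exchanger, was at 89.4 against 21.3 CPM, and its partner chain Slc3a2 at 939 against 343. Phgdh, Psat1 and Psph, which make serine, were at 625, 248 and 388 CPM against 110, 87.6 and 131. Mthfd2 and Shmt2, of mitochondrial one-carbon metabolism, were at 201 and 158 CPM against 18.8 and 48.0. Asns itself was left out of the list because the rule used it.

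Aminoacyl-tRNA synthetases of the cytosol, which load transfer RNAs, followed. Of 19 counted, 12 were at least 2-fold higher and none lower, with a median of 1.51. Nars, the asparagine enzyme, was at 893 CPM against 194, Tars at 269 against 58.9, Gars at 424 against 94.4 and Lars at 316 against 75.0. Dars (163 against 151 CPM), Hars (122 against 118), Qars (104 against 92.1) and Kars (39.8 against 51.4) were all less than 2-fold apart. The list also holds Xpot, the export receptor of transfer RNA, at 188 against 45.2 CPM.

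Among chaperones of the endoplasmic reticulum fewer passed 2-fold. Of 19 counted, 2 were at least 2-fold higher and none lower, a share of the list close to the 12.7% over all genes, with a median of 0.37. The pair was Hspa5 (BiP), at 2503 CPM against 873, and Dnajb9, at 521 against 166. Calr was at 610 CPM against 786, Pdia4 at 150 against 181 and Sdf2l1 at 67.8 against 116. Of 17 heat shock genes, 2 were higher and 2 lower. Hspa9, the mitochondrial Hsp70, was at 873 CPM against 298 and Hspb8 at 25.3 against 3.28, while Cryab was at 519 against 1394.

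Promoters of 6 genes that were higher in the chosen cells are printed here to show the motif matches found in them: 4 stress genes with the element that ATF4 and C/EBP proteins are known to bind, and the rule genes Cxcl2 and Areg with other motifs. RefSeq promoters (GRCm38.p6, 250 bases before to 50 after the start) were searched on both strands for that C/EBP-ATF response element as TGATGNAA, for the NF-kB motif as GGANTTTCC, for the cyclic AMP response element as TGACGTCA and for AP-1 as TGAGTCA. None of these motifs contains another. Capitals mark the matches, each line is written 5′ to 3′ on the gene's strand, and the first 4 hold the C/EBP-ATF element, the fifth the NF-kB motif and the sixth the cyclic AMP element.
Asns, chr6:7693160-7693459, minus strand: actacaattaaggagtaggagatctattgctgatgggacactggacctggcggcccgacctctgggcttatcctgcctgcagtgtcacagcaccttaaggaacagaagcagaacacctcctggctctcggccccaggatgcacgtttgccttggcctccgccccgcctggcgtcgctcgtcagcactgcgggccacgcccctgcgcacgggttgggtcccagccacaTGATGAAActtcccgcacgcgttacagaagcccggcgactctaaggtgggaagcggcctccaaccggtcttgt
Chac1, chr2:119350992-119351291, plus strand: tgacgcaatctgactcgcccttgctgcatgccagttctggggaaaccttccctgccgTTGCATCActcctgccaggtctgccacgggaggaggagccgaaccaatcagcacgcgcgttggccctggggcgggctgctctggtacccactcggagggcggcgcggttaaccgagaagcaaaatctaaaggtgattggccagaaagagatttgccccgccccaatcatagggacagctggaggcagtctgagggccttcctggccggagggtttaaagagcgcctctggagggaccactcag
Trib3, chr2:152344011-152344310, minus strand: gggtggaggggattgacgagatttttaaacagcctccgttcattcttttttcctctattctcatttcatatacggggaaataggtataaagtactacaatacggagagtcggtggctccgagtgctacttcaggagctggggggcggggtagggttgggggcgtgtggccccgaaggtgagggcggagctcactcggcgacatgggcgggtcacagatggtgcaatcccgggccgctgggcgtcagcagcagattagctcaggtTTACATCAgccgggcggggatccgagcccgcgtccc
Slc7a11, chr3:50443564-50443863, minus strand: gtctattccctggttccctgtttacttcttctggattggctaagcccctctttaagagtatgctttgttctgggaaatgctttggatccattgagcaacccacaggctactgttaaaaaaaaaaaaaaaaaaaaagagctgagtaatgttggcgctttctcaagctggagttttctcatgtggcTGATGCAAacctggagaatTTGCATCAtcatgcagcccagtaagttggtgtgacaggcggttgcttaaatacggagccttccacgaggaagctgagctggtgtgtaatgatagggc
Cxcl2, chr5:90903649-90903948, plus strand: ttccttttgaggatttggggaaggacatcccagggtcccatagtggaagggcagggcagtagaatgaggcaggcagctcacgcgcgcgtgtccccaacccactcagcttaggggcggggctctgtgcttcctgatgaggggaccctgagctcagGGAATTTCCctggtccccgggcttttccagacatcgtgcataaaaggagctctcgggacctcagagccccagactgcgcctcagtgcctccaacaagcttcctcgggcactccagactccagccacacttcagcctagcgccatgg
Areg, chr5:91139349-91139648, plus strand: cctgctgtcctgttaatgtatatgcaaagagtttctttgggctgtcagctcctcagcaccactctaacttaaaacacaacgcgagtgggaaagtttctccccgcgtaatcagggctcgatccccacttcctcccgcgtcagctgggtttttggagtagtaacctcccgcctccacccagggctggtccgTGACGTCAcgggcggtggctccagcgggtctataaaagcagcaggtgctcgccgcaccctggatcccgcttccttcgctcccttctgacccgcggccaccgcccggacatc

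The match in Asns, TGATGAAA, began 23 bases before the RefSeq start, those in Slc7a11 66 and 47 bases before it, and that in Chac1 193 bases before it on the other strand; in Trib3 it lay 14 bases after the start. Of 32851 promoters of this length, 3.97% held the C/EBP-ATF element. The shares below cover only the list members found in the promoter table, which were 20 of 22 integrated stress response, 15 of 19 amino acid, 12 of 19 tRNA synthetase, 17 of 19 chaperone and 16 of 24 chemokine genes, some with more than one promoter. The C/EBP-ATF element was found in 6 of 23 promoters of integrated stress response genes (26.1%), 4 of 19 of amino acid genes (21.1%), 5 of 12 of tRNA synthetase genes (41.7%), 1 of 17 of chaperone genes (5.88%) and 0 of 18 of chemokine genes. Among the 6 of the integrated stress response list was Nupr1, which was not higher in the chosen cells, while Ddit3, which was higher, had no match to this element. The NF-kB motif, in 1.25% of all promoters, was found in that of Cxcl2, 96 bases before the start, and in 5 of 18 chemokine promoters (27.8%). Areg had the cyclic AMP element 61 bases before its start, a motif in 1.79% of all promoters. The AP-1 motif, in 1709 of the 32851 promoters, was found in 4 of 18 chemokine promoters (22.2%), 2 of 12 of tRNA synthetase genes (16.7%), and 1 each of 23, 19 and 17 for the integrated stress response, amino acid and chaperone lists. These are matches of letters, and no binding was measured in these cells.

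Each cell could be placed on the summed level of the 60 genes of the 3 stress lists (integrated stress response, amino acid and tRNA synthetase genes, without Asns). The sums over cells were 13554 CPM in the chosen cells, 4442 in other NMDA glia and 3508 in uninjured glia, a 3.05-fold difference within the NMDA library. In other NMDA glia under 4% mt- the 3 lists were higher than in all other NMDA glia. They stood there at 1892, 1226 and 2446 CPM, against 4777, 3866 and 4911 in the chosen cells. Per cell the median was 14453 CPM in the chosen cells (4531 to 26632), 4268 in other NMDA glia (761 to 25197) and 3309 in uninjured glia. All 80 lay above the median of other NMDA glia, and 72 lay above their 95th percentile of 6459 CPM. The groups nonetheless overlapped: 6 other NMDA glia exceeded the median of the chosen cells. The rule used Asns, a target of ATF4, so high levels of these related genes describe the choice of cells and are no test. For the 24 resting Müller glia genes, the per-cell medians were 4272, 11392 and 57748 CPM in the same order, and 70 of the 80 lay below the 25th percentile of other NMDA glia.

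**Figure D4:**
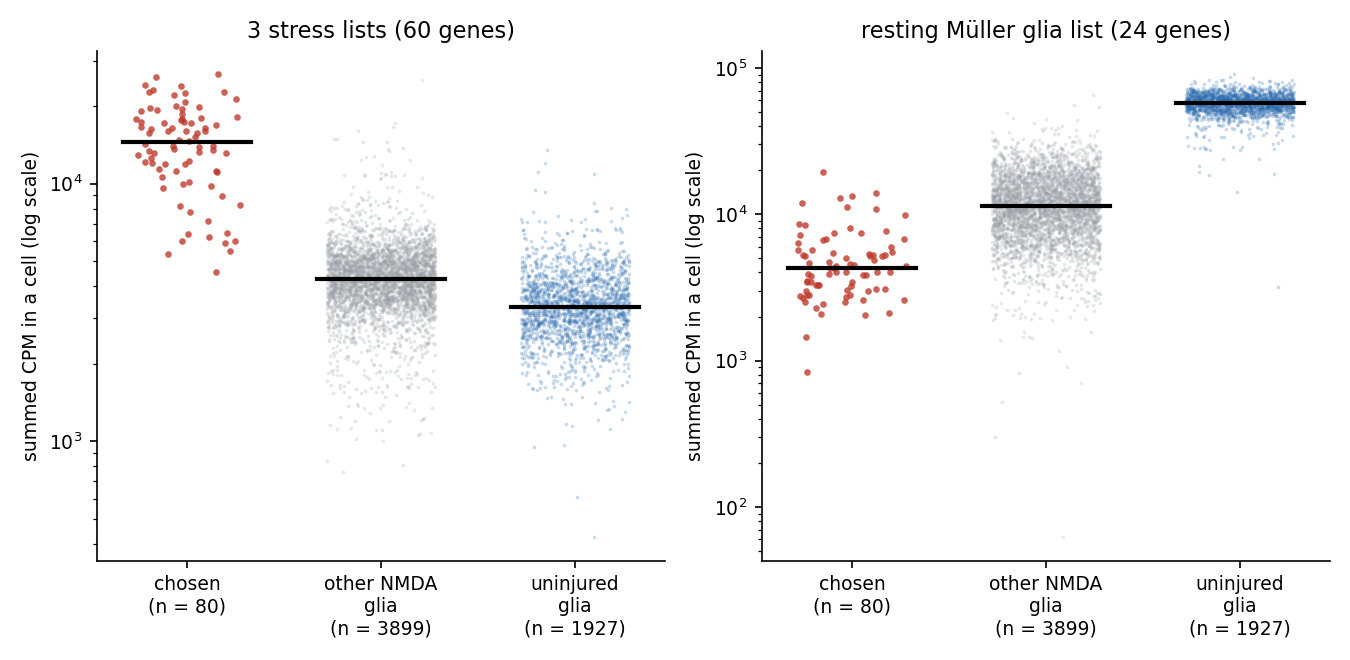
Each point is a cell and black bars are group medians; the left panel gives the summed CPM of the 60 stress genes and the right panel that of 24 resting Müller glia genes, on log scales. Chosen cells centre on 14453 CPM against 4268 in other NMDA glia on the left, and on 4272 against 11392 on the right.

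Atf4 was higher in NMDA glia of lower mt- content, also in cells the rule did not take. Among NMDA glia with under 8 UMIs of the rule genes, Atf4 was at 461 CPM in the 34 cells under 2% mt-, 264 in the 264 cells from 2 to 4%, 171 from 4 to 6%, 144 from 6 to 8%, 115 from 8 to 12% and 93.5 from 12 to 20%. Chac1 was at 8.98, 1.01, 0.78, 0.595, 0.99 and 0.49 CPM in the same bins, and the integrated stress response list summed to 2596, 1832, 1583, 1654, 1767 and 1568 CPM. The bin under 2% was the highest for all 3, and above 4% mt- neither Chac1 nor the list followed a steady order. Of all NMDA glia, 54.1% of the 74 cells under 2% mt- had at least 8 UMIs of the rule genes, against 12.9% of 303 from 2 to 4%, 3.11% of 1222 from 4 to 6% and none of 260 above 12%. The part of mt- content in the result was not tested.

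The mt- limit of the rule mattered to what the cells share. The 68 NMDA glia with at least 8 UMIs of the 6 genes but 4 to 20% mt- had more UMIs (median 22429) and nearly the Gdf15 of the chosen cells (285 against 295 CPM), but Asns at 101 CPM, Atf4 at 203, Ddit3 at 102, Chac1 at 4.74 and Cdkn1a at 77.6. Their integrated stress response list summed to 1954 CPM, against 4777 in the chosen cells and 1670 in other NMDA glia. Their Lcn2 was at 741 CPM and Gfap at 593, against 117 and 32.5 in the chosen cells. When the comparison was instead made with the 298 other NMDA glia under 4% mt-, 440 of the 8429 genes counted were 2-fold or more above (5.22%) and 628 as far below (7.45%), with a median of -0.01. Of the same counted members 13 of 20 integrated stress response genes, 17 of 17 amino acid genes and 10 of 19 tRNA synthetase genes were at least 2-fold higher, with medians of 1.34, 2.04 and 1.04. Atf4 was then 3.37-fold higher, Chac1 51.9-fold and Trib3 13.8-fold. Ribosome biogenesis genes behaved otherwise: 9 of 16 were at least 2-fold higher than in all other NMDA glia (Rrs1 at 289 against 85.1 CPM, Nop56 at 340 against 119), and 0 of 16 against those under 4% mt-.

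p53 targets were higher as well. Of 17 counted, 10 were at least 2-fold higher and none lower, with a median of 1.503, and 9 of 17 against NMDA glia under 4% mt-. Cdkn1a, the cell cycle inhibitor p21, was at 416 CPM against 28.6 and 5.11 in uninjured glia, a log2 ratio of 3.86 (3.72 to 4.01), with UMIs in 70 cells. Mdm2, which degrades p53, was at 211 CPM against 43.2, and Bbc3, the death activator PUMA, at 28.0 against 2.34. Tnfrsf10b, a death receptor that CHOP also induces, was at 28.0 against 6.74 CPM. Of 16 apoptosis genes counted, 5 were higher and 2 lower; the higher ones included Casp8 (48.8 against 21.2 CPM) and the survival gene Bcl2l1 (167 against 77.2), and Bad was at 29.8 against 70.2. Against NMDA glia under 4% mt-, 2 of these 16 were higher and 1 lower, and Casp8 and Bcl2l1 were 1.28-fold and 1.39-fold higher. Of 13 antioxidant genes, 5 were higher and none lower, among them Hmox1, heme oxygenase 1, at 439 against 99.5 CPM and Txnrd1 at 257 against 65.1.

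Among growth factor genes, 4 of 10 EGF receptor ligands, receptors and regulators counted were higher and 1 lower, besides Areg itself. Hbegf was at 680 CPM against 104 and 22.03, with UMIs in 75 cells. Nrg1 was at 83.1 against 4.03 CPM, Btc at 56.0 against 15.3 and Ereg at 18.1 against 2.12, while the receptor Egfr was at 15.4 against 13.1. Of 15 genes of feedback on MAP kinase signalling, 4 were higher and 1 lower: Dusp5 was at 221 CPM against 34.0, Spry2 at 1148 against 300, Spry4 at 44.3 against 14.8 and Phlda1 at 435 against 191, and Spry1 was at 15.4 against 50.8. Against NMDA glia under 4% mt-, Dusp5 and Spry2 were the 2 of 15 that were higher, with 1 lower, and 3 of the 10 EGF receptor ligands and receptors were higher and 1 lower. Of 19 AP-1 and immediate early genes, 7 were higher and 3 lower. Fosl1 was at 643 CPM against 65.0 and 0.82, Myc at 282 against 79.8, and Klf4 at 185 against 47.6, while Fos was at 729 against 1694. Against NMDA glia under 4% mt-, 6 of these 19 were higher and none was 2-fold lower.

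Of 13 chemokine and cytokine genes counted, 6 were higher and 2 lower. Cxcl12, which guides leukocytes and progenitors, was at 505 CPM against 48.4 with UMIs in 73 cells and no more than 39 in one. Cxcl1, which like Cxcl2 attracts neutrophils, was at 153 against 14.6 CPM, but 83 of its 169 UMIs lay in 1 cell, without which its log2 ratio went from 3.39 to 2.44, and 21 cells had any. Il11 was at 30.7 against 3.96. Il1b, counted among the 6, had all of its 93 UMIs in the leukocyte-marked barcode, and its log2 ratio of 6.43 became -1.11 without it; Lyz2 and Tyrobp likewise turned from 2.50 and 2.45 to -1.53 and -2.97. Il33 was lower, at 222 against 571 CPM. Of 12 NF-kB targets and regulators, 6 were higher and 1 lower, with Tnfrsf12a, the TWEAK receptor, at 1187 against 261 CPM and Icam1 at 47.0 against 7.80, of whose 52 UMIs 23 lay in 1 cell. Against NMDA glia under 4% mt-, 2 of these 12 were higher.

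Genes of gliosis differed in direction with the comparison. Of 14 reactive gliosis genes counted, 1 was at least 2-fold higher than in other NMDA glia and 6 lower (median -0.84), whereas against uninjured glia 6 of 14 were higher and 3 lower (median 0.74). Gfap was at 32.5 CPM against 471, a log2 ratio of -3.84 (-4.37 to -3.39), and near the 54.3 CPM of uninjured glia; 27 of its 36 UMIs lay in 1 cell and 74 of the 80 had none. Other NMDA glia under 4% mt- had Gfap at 155 CPM, which made the log2 ratio -2.23. Across the alternatives it ran from -5.74 to -0.34, so the size of the Gfap difference depends on these choices. Serpina3n had 0 UMIs in the chosen cells and 38.8 CPM in other NMDA glia, at least 14.3-fold lower by the limit of 3 UMIs in the sum. Its log2 ratio ran from -6.75 to -0.11 across the alternatives. Timp1 was at 79.5 against 170 CPM, and at 18.2 in uninjured glia. Lcn2 was at 117 against 199 CPM, with 61 of its 130 UMIs in 1 cell; its log2 ratio of -0.76 was -1.65 without that cell, 0.005 against NMDA glia under 4% mt-, 1.41 with mt- up to 20% in the rule and -2.80 with Asns left out of the rule, so its direction depends on these choices. Emp1 was the member that was higher, at 184 against 33.8 CPM. After thinning to 3000 UMIs, 2.50% of chosen cells, 41.1% of other NMDA glia and 4.05% of uninjured glia had Gfap; at 1000 UMIs, 2.50% of chosen cells and 4.24% of rod-like barcodes had it.

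The 4 genes of the glial state marked by Hbegf and Hmga2 were all higher, with a median log2 ratio of 2.62. Against NMDA glia under 4% mt- all 4 were still higher, with a median of 1.41. They summed to 2273 CPM in the chosen cells and 368 in other NMDA glia. In the other NMDA glia of a cluster led by Hbegf and Gal, described below, they summed to 853. Hmga2, a chromatin protein of immature cells, was at 1052 CPM against 196 and 0.95 in uninjured glia, Plaur, the urokinase receptor, at 267 against 20.7, and Upp1 at 274 against 47.3. Plaur had 0 UMIs in uninjured glia, so the chosen cells were at least 1412-fold higher there. Of the 4 genes of the state marked by Prss56 and Cdh13, Prss56 was at 1202 CPM against 569, St8sia5 at 20.8 against 80.2, Olfm2 at 71.4 against 482 and Cdh13 at 154 against 278. Against NMDA glia under 4% mt-, 3 of these 4 were at least 2-fold lower and none higher. The Prss56 UMIs were uneven, with 229 of 1331 in 1 cell and a median of 5.

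Resting Müller glia genes were lower still than in other NMDA glia. Of 22 counted, 15 were at least 2-fold lower and none higher, with a median of -1.68; against NMDA glia under 4% mt-, 11 of the same 22 were. Apoe was at 315 CPM against 1927 and 10228, Crym at 422 against 2478, Dkk3 at 54.2 against 341 and 1957, and Aqp4, the water channel, at 43.4 against 243 and 1225. Kcnj10, the potassium channel, was at 25.3 against 131 CPM. Glul, glutamine synthetase, was at 727 CPM against 839 in other NMDA glia, while uninjured glia had 20586. Of 9 counted genes that handle glutamate, potassium or water, 6 were lower and none higher. Trf, which encodes transferrin, was at 41.6 against 427 CPM.

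The list of Ifi200 family and interferon genes, which leaves out Ifi203, was mixed. Of 14 counted, 7 were at least 2-fold lower, 6 lay between and 1, Mndal, was higher, with a median of -1.05. Ifit3 was at 16.3 against 67.2 CPM, Oasl2 at 19.9 against 70.4 and Isg15 at 9.04 against 31.4. Ifi204, of the same family and below the limit for counting, was at 9.94 against 2.72 CPM from 11 UMIs in 11 cells, while Ifi207 and Ifi213 had 1 UMI each, too few to compare. Outside the lists, Anxa3 (162 against 11.6 CPM), Nptx2, a secreted pentraxin (145 against 7.69), Krtap4-16 (132 against 3.40, from 20 cells) and Serpinb2 (110 against 2.93, with 75 of 122 UMIs in 1 cell) were more than 10-fold higher. Vgf, a secreted neuropeptide precursor, was at 117 against 10.8 CPM, while 3 of 7 genes of regulated secretion counted were lower and 2 higher. Cytosolic ribosomal proteins showed 0 of 81 higher or lower, with a median of -0.08, which was negative under each scaling and turned to 0.09 against NMDA glia under 4% mt- and 0.02 with mt- up to 20% in the rule.

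**Figure D5:**
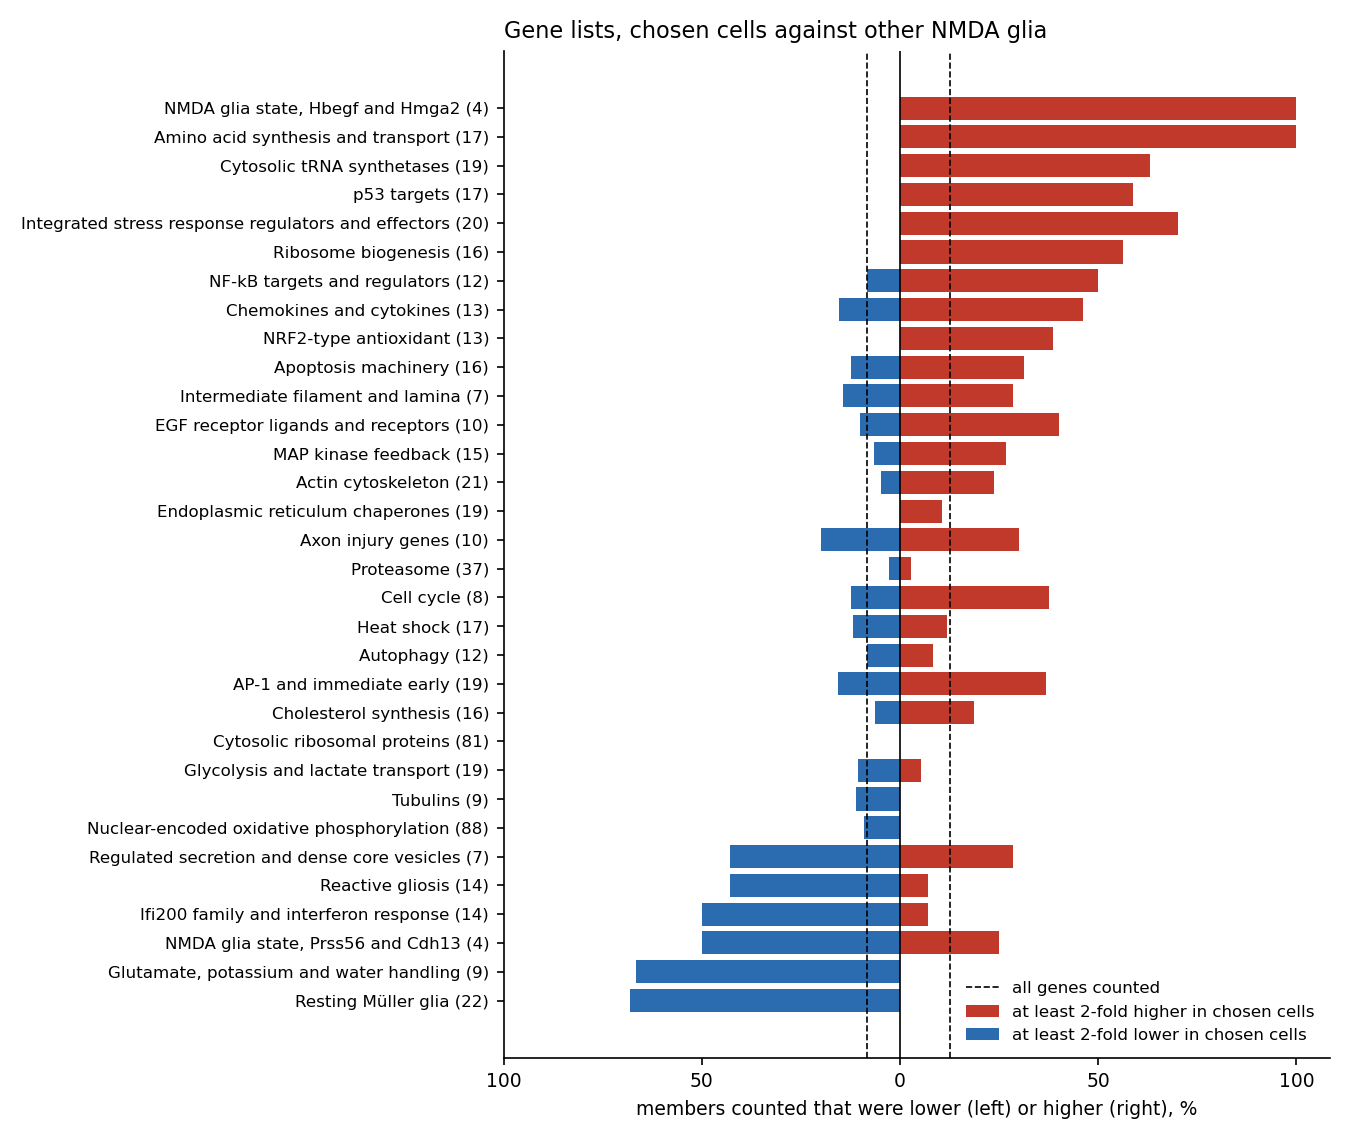
For each gene list, with the number of members counted in brackets, bars give the percent of those members that are higher (right) and lower (left) by 2-fold or more in the chosen cells than in other NMDA glia; dashed lines are the shares over all genes counted, 12.7% and 8.44%. Amino acid genes reach 17 of 17 on the right and resting Müller glia genes 15 of 22 on the left.

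Against uninjured glia the chosen cells combined the stress genes with the general shift of the NMDA library. Of 20 integrated stress response genes counted there, 15 were at least 2-fold higher and 1 lower, the latter being Ddit4 at 26.2 against 114 CPM. Of 17 amino acid genes 15 were higher and none lower, and of 19 tRNA synthetase genes 16 were. Of 24 resting genes 21 were lower. Ribosomal protein genes, close to other NMDA glia, were higher in 78 of 81 against uninjured glia.

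Clustering of 4053 NMDA barcodes, made without the 6 rule genes and mt- genes, put 67 of the 80 chosen cells (83.8%, 73.8 to 91.1%) in 1 cluster of 100, led by Gm13889, Cxcl2, Ifi203, Areg, Calcb and Krtap4-16. A further 9 lay in a cluster led by Hbegf and Gal, 2 in a cluster led by S100a9 and S100a8, and 1 in each of 2 others. The 67 had a median of 16012 CPM over the 3 stress lists, and the 13 outside 6462 CPM. Chac1 was at 108 and 18.5 CPM in the same order, Atf4 at 1072 and 407, Trib3 at 76.4 and 4.62, Areg at 213 and 9.25, and Gdf15 at 301 and 273. Within the 80 chosen cells, Gm13889, a predicted gene, had 504 UMIs, all in 40 of the 67. The 32 other NMDA glia of that cluster, which the rule did not take, had Atf4 at 813 CPM, Chac1 at 25.9, Trib3 at 31.6, Asns at 227 and Ifi203 at 351, above the 155, 0.87, 1.24, 23.3 and 11.7 CPM of all other NMDA glia. Clusters could draw on every gene other than the 6 rule genes and mt- genes, so these values describe where the cells lie. The rule and the cluster named largely but not wholly the same cells, and the 13 outside had a lower median of the stress genes.

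Within the 80 cells, each rule gene was also set against other genes. After thinning, the highest Spearman correlations of Asns across the 80 cells were with Slc7a5 (0.38), Tcof1 (0.38) and Eef1g (0.37), those of Areg with Tardbp (0.47) and Rab21 (0.39), those of Syt4 with Psph (0.40) and Mndal (0.39), those of Gdf15 with Clcn3 (0.37), and those of Cxcl2 with Nfkbia (0.31). These are the largest of 1987 genes compared, in sparse counts from cells of 1 library, and are given as descriptions only. Several pairs were often detected in the same cells, which had been picked on the sum of the rule genes: Asns and Gdf15 in 62 cells, Asns and Ifi203 in 53, Areg with Asns in 39 and with Gdf15 in 36 of the 40 cells with Areg, and Syt4 with Asns in 40 and with Ifi203 in 36 of the 41 cells with Syt4. Areg and Cxcl2 were detected together in 10.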

How the data were processed

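Single cells sorted for tdTomato from NMDA-injected and un-injected retinae were measured in 1 droplet (10x Genomics Chromium) library each. The deposited matrices hold whole UMI counts per gene and barcode; per the file headers, the authors used Cell Ranger 6.0.1. The submitters' processing notes name mm10, Cell Ranger and Seurat. The NMDA library held 79523805 UMIs and the uninjured library 17929924 UMIs over 21886 features, of which 21830 matched GENCODE M21 (GRCm38), the source of gene coordinates.

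UMIs were summed over the cells of each group and scaled to CPM. Ratios are log2 with 0.5 counts added to each sum, and their 95% intervals are exact conditional binomial intervals for counting error only. Genes with a mean of at least 10 CPM over both sums were counted, and higher or lower means at least 2-fold. With 1 library per group no test was run. Shares have Clopper-Pearson intervals, and a sum of 0 was taken to allow 3 UMIs. Clustering (scanpy 1.11.5, Leiden, 2000 variable genes, 30 components, 15 neighbours, resolution 0.5) left out the 6 rule genes and mt- genes. Rod-like barcodes had at least 20 UMIs of rod markers and under 10 glial UMIs. Doublets were scored with Scrublet in scanpy and not removed. The script of ratios was checked on simulated counts.

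The members and gene lists were chosen with earlier results of these data known. Named genes are the 7 markers, the 15 highest and 15 lowest ratios (at least 50 CPM, no predicted, mt- or sex-linked genes), up to 4 members of each list, a set of glial and stress genes, and the 3 genes most correlated with each rule gene. Other list members, and Gm13889, were named after their values were seen, to complete a pathway or show members that differed little. Alternatives changed the scaling, weight of cells, limits of the rule and on low genes, depth, doublets and the genes in the rule. Results for a few genes are not reported here.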

Additional observations from a re-analysis of the deposited data

How the results depend on the processing

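The 80 cells became 48 with at least 15 UMIs of the 6 genes, 52 with Asns left out of the rule and 150 with mt- up to 20%, where 282 genes were higher and 90 lower than in other NMDA glia. Counting every gene with 1 UMI gave 5094 higher and 1721 lower (4177 and 3810 against uninjured glia), and a limit of 50 CPM gave 450 and 240 (900 and 835 against uninjured glia). With comparison cells under 4% mt-, 449 genes were higher and 638 lower of 8523 counted, so that lower genes became the larger number; after thinning 1663 were higher and 869 lower. The other 58 counts of genes and 9 counts of cells stayed within 1.5 times their value; the cause of the changes was not tested. TMM scaling gave 715 higher and 980 lower, median of ratios 762 and 931. For single genes, the log2 ratio of Stmn2 became 0.072 with mt- up to 20%, those of Pdc, Rp1 and Sag 0.55, 0.48 and 0.33 with comparison cells under 4% mt-, and that of Nsdhl 0.19 after thinning. Those of Il1b, Lyz2 and Tyrobp became -1.11, -1.53 and -2.97 with glial UMIs required or, in an alternative chosen after seeing the data, without the cell with most UMIs of the gene, which also took Calcb to -0.17; they were -1.10, -1.51 and -2.95 with Cxcl2 left out of the rule. Of 34 lists, 5 changed the sign of their median under some alternative: AP-1, autophagy, cholesterol synthesis, ribosomal protein and regulated secretion genes. No paired analysis was possible because each group is 1 library. Depth limits genes with few UMIs in the chosen cells, whose sum held 1106864 UMIs.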

Other observations

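Cell cycle genes were mixed in the chosen cells. Ccnd1, cyclin D1, had 823 UMIs there, while Mki67 had 2, Top2a 1 and Ccnb1, Cdk1 and Ccna2 none. The files also hold a GFP sequence, which the labels do not mention: it was at 216 CPM in the chosen cells, 79.8 in other NMDA glia and 94.2 in uninjured glia, with UMIs in 48 of the 80. After thinning to 1000 UMIs it was in 16 of the 80 chosen cells and in 48.5% of rod-like barcodes.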
